A study of Mus musculus with 6 samples.

Results

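The mitochondrial ribosomal protein genes are the nuclear genes for the protein part of the ribosome inside mitochondria. They were chosen by symbol alone, as every gene named Mrpl or Mrps followed by a number and at most a letter a, b or c. This rule uses no measured value, although earlier results of these data were known when it was chosen. Of 25701 genes, 78 met this rule, 49 with an Mrpl symbol (large subunit) and 29 with an Mrps symbol (small subunit). All 78 also passed the filter on low values applied to the whole table, a mean of 10 or more across all 6 libraries, with means from 62.9 to 2112 normalized counts and a lowest single value of 27.9.

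PolyA RNA was sequenced from cardiac progenitor (CP) cells, the stage between mesoderm and cardiomyocyte, which were derived from 46C mouse embryonic stem cells, a line whose Sox1 gene carries a green fluorescent reporter. The comparison is of 3 libraries labelled Zhx1-KO, in which the gene for a zinc finger and homeobox protein was cut by Cas9 with guides placed near its transcription start and stop, against 3 libraries of 46C-Ctrl. The knockout line was picked by PCR, and the study also measured Zhx1 mRNA and protein to establish it as embryonic stem cells. No source used here gives the number of clones behind the libraries, so a feature of the line and an effect of the genotype cannot be told apart. The study states that its data come from independent experiments, but the labels tie no library to a culture, so the spread behind each p-value is that between libraries and may be technical.

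Mitochondrial ribosomes translate the few proteins encoded by mitochondrial DNA, all of them subunits of the respiratory chain and ATP synthase. Their RNAs are made inside the organelle, while every protein of the particle is encoded in the nucleus, translated in the cytosol and imported. Some of these proteins descend from bacterial ribosomal proteins and the others are additions of the mitochondrial lineage, and loss of mitochondrial translation is known for its effect on heart tissue in particular.

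The values are normalized counts, gene counts divided by 1 factor per library. Depth, as the sum of each library in units of its smallest step, ran from 13769967 to 15940874. Zhx1 itself had 225, 325 and 308 normalized counts in Zhx1-KO libraries 1, 2 and 3, against 460, 181 and 457 in 46C-Ctrl libraries 1, 2 and 3 (log2 fold change -0.25, adjusted p = 0.579 from limma). The groups overlapped, since 46C-Ctrl replicate 2 was the lowest of all 6, and a whole-gene value includes reads from any undeleted part, so the transcript does not settle the labels. The same 46C-Ctrl library had 2.77% of its summed values in mitochondrially encoded genes, where the other 5 libraries had from 1.72% to 1.87%, and counts without it are given below. Defining markers of the labelled cell type were uneven: the 6 CP markers summed to between 1081 and 1159 normalized counts in Zhx1-KO and between 7770.4 and 8527 in 46C-Ctrl, with 0 called higher and 5 called lower. Tbx5 was nearly absent in Zhx1-KO, at 3.02, 1.01 and 1.76 normalized counts, against 66.3, 56.9 and 63.3 in 46C-Ctrl, and Isl1 was the marker that did not pass (log2 fold change -0.23). Of the other marker lists, 6 of 7 endothelial genes (sums of 4242 to 4414 in Zhx1-KO and 1089 to 1184 in 46C-Ctrl) and 5 of 7 cardiomyocyte genes (8983 to 9865 in Zhx1-KO and 6639 to 7550.2 in 46C-Ctrl) were called higher and 2 cardiomyocyte genes lower. All 3 tested blood genes (sums of 99.1 to 129 in Zhx1-KO and 587 to 700.3 in 46C-Ctrl), 5 of 6 endoderm genes and 4 of 6 pluripotency genes were called lower, and 5 of 6 neural and 4 of 5 paraxial mesoderm genes higher. Against their lists, Sox2 of the pluripotency genes was higher and Nes of the neural genes lower (log2 fold changes 1.75 and -0.76). In such bulk RNA, fewer cells of a type and less RNA per cell cannot be told apart, and the part of cell makeup in the results below was not tested.

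The mitochondrial ribosomal protein genes changed little as a group, and mostly by small amounts. Of the 78 members, 25 were called higher and 9 lower in Zhx1-KO at an adjusted p under 0.05 (limma, adjusted over all 15372 genes tested), and 44 did not pass. In all, 43.6% of members were called, against 52.0% of all genes tested, and the shares by direction were 32.1% higher against a background of 25.6%, and 11.5% lower against 26.4%. Their median log2 fold change (Zhx1-KO over 46C-Ctrl, throughout) was 0.07, with an interquartile range from -0.12 to 0.32, and that of all genes tested was 0.01, with an interquartile range from -0.38 to 0.44. No member changed by 2-fold or more in either direction, where 20.5% of all genes did. With a change of at least 1.5-fold added to the call, 9 members were higher (background 15.9%) and 1 was lower (background 14.3%). Values of the 3 Zhx1-KO and 3 46C-Ctrl libraries were fully apart for 40 members, against 60.8% of all genes. These were 33 of the 34 called members (Mrpl15 being the exception) and 7 of those not called. Over the members not called, 95% intervals of the log2 fold change reached at most from -0.74 to 0.78, so smaller changes were not resolved for each of them at this number of libraries. Without 46C-Ctrl replicate 2, 21 members were called higher and 8 lower, and without Zhx1-KO replicate 2, 16 were called higher and 6 lower.

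**Figure D1:**
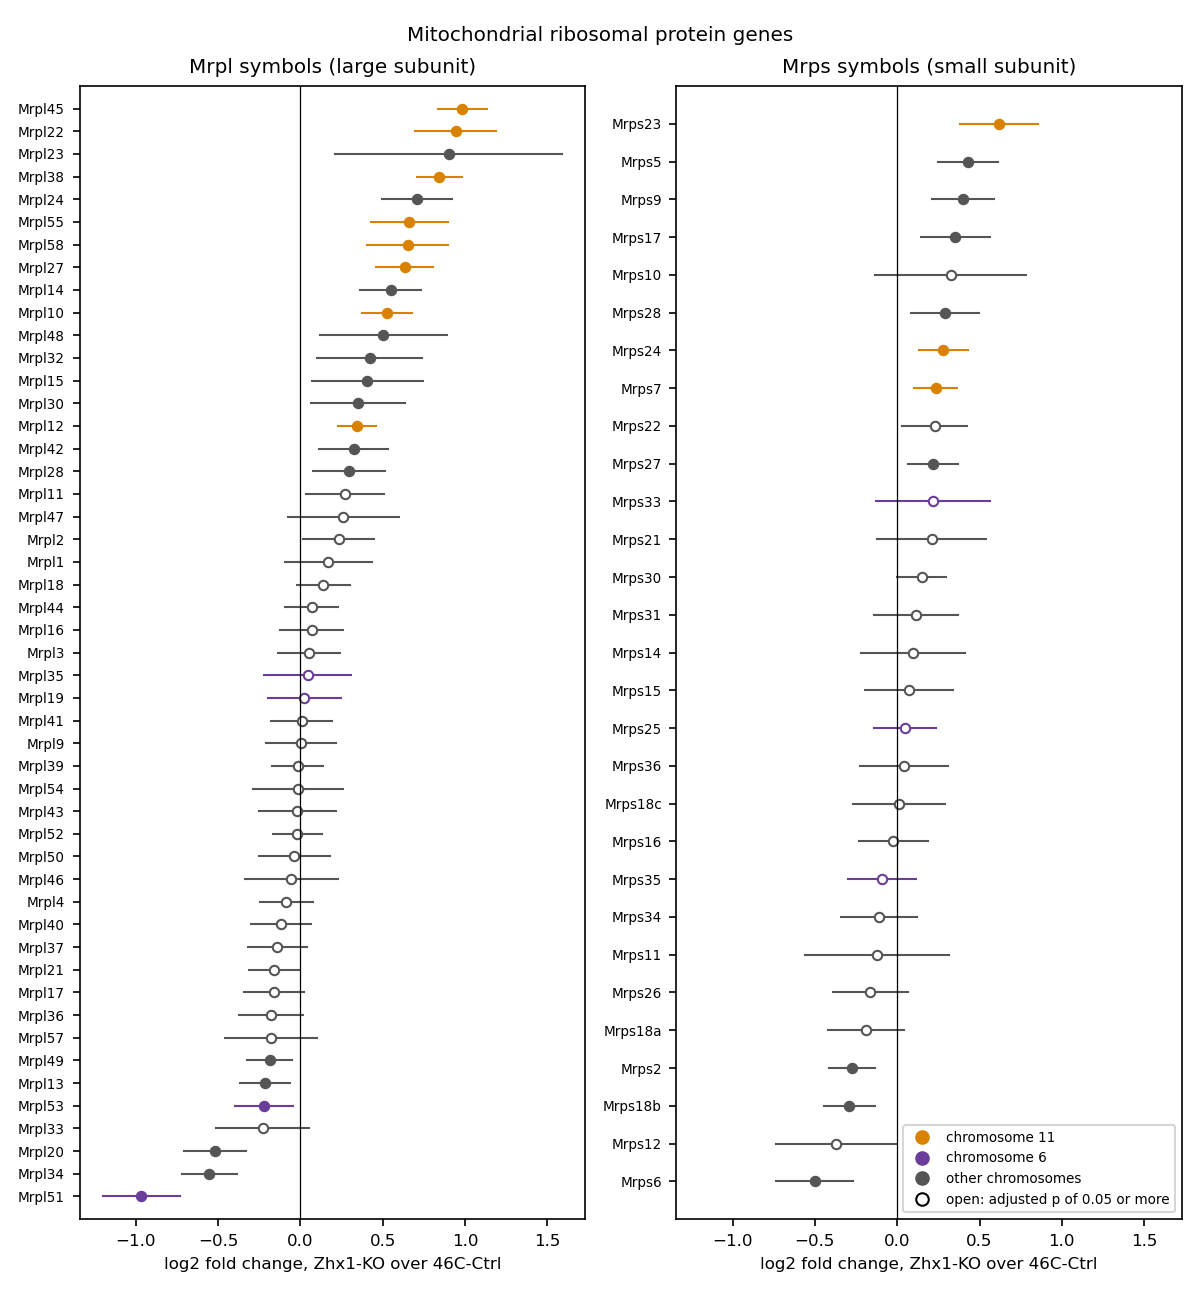
Log2 fold change (x axis, Zhx1-KO over 46C-Ctrl) of each of the 49 Mrpl genes (left) and 29 Mrps genes (right), ordered by size. Bars are 95% intervals from limma, filled points passed an adjusted p of 0.05, and the 11 genes of chromosome 11 all sit right of 0.

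Some genes for proteins around the exit of the peptide tunnel of the large subunit were among the largest rises. Mrpl22, Mrpl23 and Mrpl24 encode the homologues of bacterial proteins that line or rim this exit, as do Mrpl17 and Mrpl47, and Mrpl45 encodes a protein without bacterial counterpart that, in human mitoribosomes, holds the exit against the inner membrane. Of these 6, which were grouped with their values known, 4 were called higher, where 25.6% of all genes tested were. Mrpl45 and Mrpl22 lie on chromosome 11, where 57.0% of tested genes were called higher. Mrpl47 and Mrpl17 did not pass (log2 fold changes 0.26, 95% interval -0.08 to 0.60, and -0.16, -0.35 to 0.02). Mrpl45, on chromosome 11, had 1861, 2003 and 2002 normalized counts in Zhx1-KO and 924, 1008 and 1035 in 46C-Ctrl. The lowest Zhx1-KO library lay far above the highest 46C-Ctrl library, and at a log2 fold change of 0.98 (95% interval 0.84 to 1.13, adjusted p = 1.6e-05 from limma) this was the largest rise among the 78 genes.

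Mrpl22, also on chromosome 11, had 648, 658 and 672 normalized counts in Zhx1-KO and 387, 295 and 352 in 46C-Ctrl. The Zhx1-KO libraries were within a few percent of each other and the 46C-Ctrl libraries more spread, with no overlap, and the log2 fold change was 0.94 (95% interval 0.70 to 1.19, adjusted p = 2.3e-04 from limma). Mrpl24, on chromosome 3, had 599.7, 672 and 634 normalized counts in Zhx1-KO and 369, 365 and 431 in 46C-Ctrl. Its groups did not overlap either (log2 fold change 0.71, 95% interval 0.50 to 0.92, adjusted p = 4.5e-04 from limma), and it was the only rise of at least 1.5-fold outside chromosome 11 besides Mrpl23.

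Mrpl23 is the least certain of the called genes at the exit. It lies on chromosome 7 and had 83.7, 92.0 and 67.8 normalized counts in Zhx1-KO and 46.8, 27.9 and 59.1 in 46C-Ctrl, the lowest levels of any member. Its log2 fold change of 0.90 had a 95% interval from 0.21 to 1.59 (adjusted p = 0.0351 from limma), and the call was lost in 7 of 15 other settings, with adjusted p values from 0.0186 to 0.106. A processed pseudogene on chromosome 2, Mrpl23-ps1, had 1183, 1257 and 1213 normalized counts in Zhx1-KO and 513, 565 and 503 in 46C-Ctrl, which is 15.0 times the mean of Mrpl23 in Zhx1-KO and 11.8 times in 46C-Ctrl. Of the 50-base stretches in the transcript of Mrpl23-ps1, 92.5% also occur in Mrpl23, so reads of the gene may have been counted at its copy or the reverse. The sum of both was 1299 ± 44.0 in Zhx1-KO and 572 ± 18.7 in 46C-Ctrl (SD, n = 3 each), 2.27 times as high. Mrpl23 ends 34.8 kb from H19, an imprinted noncoding RNA whose log2 fold change was 6.56 here (adjusted p = 9.6e-09 from limma).

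The stalk of the large subunit, which recruits translation factors, includes the products of Mrpl10 (at its base) and Mrpl12 (its flexible arms, also known to bind the mitochondrial RNA polymerase). Both genes were called higher, and both lie on chromosome 11, where 57.0% of tested genes were called higher. They are not all of the genes for this region. Mrpl11 and Mrpl54 did not pass (log2 fold changes 0.27 and -0.02), and Mrpl53 was called lower (-0.22), a call lost in 10 of 15 other settings. Mrpl10 had 1465, 1467 and 1521 normalized counts in Zhx1-KO and 955, 1041 and 1102 in 46C-Ctrl. There was no overlap, and the log2 fold change was 0.53 (95% interval 0.37 to 0.68, adjusted p = 3.95e-04 from limma). Mrpl12 had 2315, 2418 and 2354 normalized counts in Zhx1-KO and 1807, 1839.6 and 1938 in 46C-Ctrl. It rose less than its partner (0.34, 95% interval 0.23 to 0.46, adjusted p = 8.2e-04 from limma), again without overlap, and the difference between both rises was not tested.

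Other genes of the large subunit rose as well. Mrpl38, a mitochondria-specific gene of chromosome 11, had 1329, 1387 and 1266 normalized counts in Zhx1-KO and 719.7, 738 and 757 in 46C-Ctrl. All Zhx1-KO libraries were above all 46C-Ctrl libraries, with a log2 fold change of 0.84 (95% interval 0.71 to 0.98, adjusted p = 2.3e-05 from limma). Mrpl27, whose bacterial homologue reaches towards the peptidyl transferase centre, had 662, 616 and 710.3 normalized counts in Zhx1-KO and 425, 424 and 429 in 46C-Ctrl. The 46C-Ctrl libraries were nearly equal and all below the Zhx1-KO libraries (log2 fold change 0.63, 95% interval 0.46 to 0.81, adjusted p = 3.1e-04 from limma). Mrpl14, on chromosome 17, encodes a protein at the face that meets the small subunit, and had 626, 661 and 646 normalized counts in Zhx1-KO and 403, 468 and 452 in 46C-Ctrl. It did not overlap between groups and changed by 0.55 (95% interval 0.36 to 0.73, adjusted p = 8.4e-04 from limma). Mrpl58 encodes a peptidyl-tRNA hydrolase built into the large subunit that can free stalled ribosomes, and its log2 fold change was 0.65, while that of Mrpl55, also on chromosome 11, was 0.66.

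The large-subunit calls that remain were rises of smaller size or wider error. Mrpl42, on chromosome 10, had 1060.2, 1127 and 1108 normalized counts in Zhx1-KO and 823, 1008 and 814 in 46C-Ctrl, a log2 fold change of 0.32 without overlap (adjusted p = 0.0186 from limma). Mrpl32, Mrpl15 and Mrpl30 had 0.42, 0.41 and 0.35, with adjusted p values of 0.0340, 0.0475 and 0.0445, and Mrpl15 was the only called member whose groups overlapped. Of 15 other settings, Mrpl32 and Mrpl30 lost their calls in 7 each, Mrpl15 in 6 and Mrpl42 in 5. Mrpl28 had 0.29 (adjusted p = 0.0322 from limma) and lost its call in 5 of 15 other settings, and Mrpl48 had 0.50 (adjusted p = 0.0354) and lost its call in 6. Over the 44 members not called, of both subunits, log2 fold changes ran from -0.37 (Mrps12) to 0.32 (Mrps10).

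The falls were fewer and, apart from Mrpl51, smaller. Mrpl51, a mitochondria-specific protein gene of the large subunit on chromosome 6, had 389, 473 and 495 normalized counts in Zhx1-KO and 835, 892 and 916 in 46C-Ctrl. Every Zhx1-KO library was below every 46C-Ctrl library by a wide margin. This largest fall had a log2 fold change of -0.97 (95% interval -1.20 to -0.73, adjusted p = 1.5e-04 from limma). Mrpl34, homologue of a short bacterial protein, had 488, 516 and 535 normalized counts in Zhx1-KO and 743, 720.5 and 797 in 46C-Ctrl. It lies on chromosome 8, its groups did not overlap, and it fell by 0.55 on the log2 scale (adjusted p = 4.8e-04 from limma). Mrpl20, on chromosome 4, encodes the homologue of a bacterial protein that binds rRNA early in assembly, and had 561, 538 and 629 normalized counts in Zhx1-KO and 776, 864 and 836 in 46C-Ctrl. Here too the groups were apart, with a log2 fold change of -0.52 (adjusted p = 0.0012 from limma). Mrpl13 and Mrpl49 fell by 0.21 and 0.19 on the log2 scale (adjusted p = 0.0275 and 0.0299 from limma), and these calls were lost in 6 and 10 of 15 other settings.

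**Figure D2:**
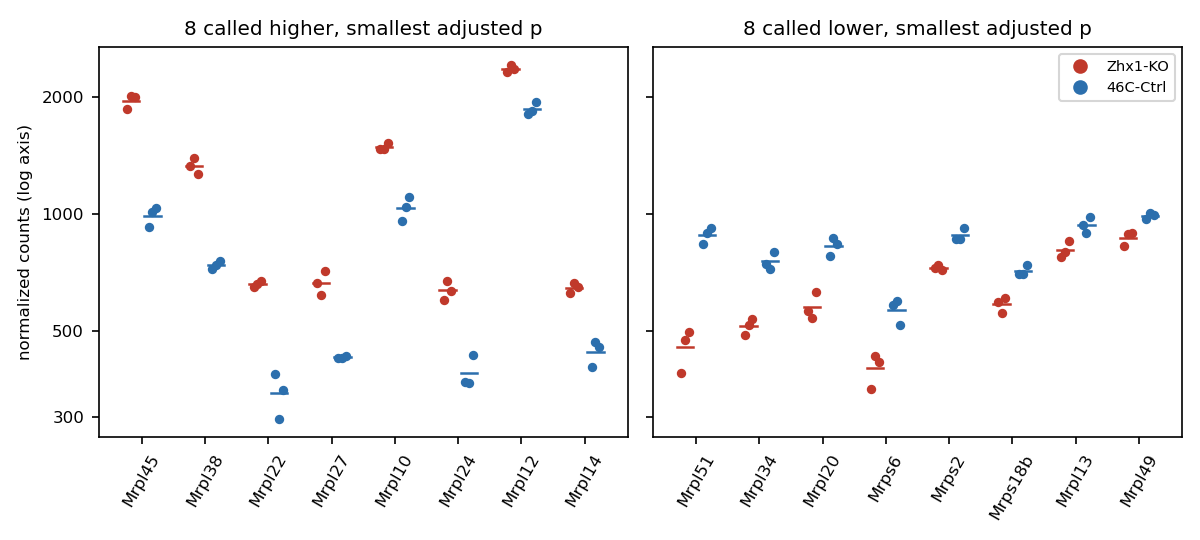
Normalized counts (y axis, log scale) in each library of the 8 called rises (left) and 8 called falls (right) with the smallest adjusted p and no overlap between groups. Zhx1-KO libraries stand left of 46C-Ctrl libraries, bars mark means of 3, and no gene shown overlaps between groups, with the widest gaps at Mrpl45 and Mrpl51.

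In the small subunit, 8 of 29 genes were called higher (27.6%, near the 25.6% of all genes) and 3 lower (10.3%, against 26.4%), and 18 did not pass. The largest change was that of Mrps23, a mitochondria-specific gene on chromosome 11, with 572, 613 and 499 normalized counts in Zhx1-KO and 336, 373 and 387 in 46C-Ctrl. The groups did not overlap (log2 fold change 0.62, 95% interval 0.38 to 0.85, adjusted p = 0.0016 from limma), and no other Mrps gene reached 1.5-fold. Mrps7, whose bacterial homologue organises the head of the small subunit, had 1029, 1005 and 1070.3 normalized counts in Zhx1-KO and 858, 877 and 905 in 46C-Ctrl, a log2 fold change of 0.23 without overlap (adjusted p = 0.0102 from limma). Mrps24, the homologue of bacterial S3, changed by 0.28 (adjusted p = 0.0077 from limma). It shares exon bases with Urgcp on the same strand, so its reads may include those of that gene.

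Outside chromosome 11 the small subunit had 5 further rises. Mrps5 had 936, 1018 and 1118 normalized counts in Zhx1-KO and 792, 734 and 748 in 46C-Ctrl, a log2 fold change of 0.43 (95% interval 0.25 to 0.61, adjusted p = 0.0026 from limma). Mrps9 had 780.1, 816 and 844 in Zhx1-KO and 639.7, 555 and 659 in 46C-Ctrl, a change of 0.40 (0.21 to 0.59, adjusted p = 0.0047). Both encode homologues of bacterial proteins of the small subunit, and neither overlapped between groups. Mrps17, Mrps28 and Mrps27 followed with 0.35, 0.29 and 0.22 (adjusted p = 0.0132, 0.0275 and 0.0240 from limma), and Mrps27 lost its call in 6 of 15 other settings and Mrps28 in 4.

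The small-subunit falls were Mrps6, Mrps2 and Mrps18b. Mrps6, on chromosome 16, had 354, 429.8 and 415 normalized counts in Zhx1-KO and 583, 595 and 516 in 46C-Ctrl. No library crossed over, and the log2 fold change was -0.50 (95% interval -0.74 to -0.27, adjusted p = 0.0043 from limma), but Slc5a3 shares exon bases with it on the same strand. Mrps2 had 725, 739 and 716 normalized counts in Zhx1-KO and 861, 858 and 919 in 46C-Ctrl, and fell by 0.27 on the log2 scale (adjusted p = 0.0059 from limma).

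Mouse mitoribosomes have a family of homologues of bacterial S18, and of its 3 genes 1 was called lower and 0 higher. Of all genes tested, 26.4% were called lower and 25.6% higher. Mrps18b had 593, 553 and 605 normalized counts in Zhx1-KO and 700.2, 701 and 739 in 46C-Ctrl, a fall without overlap (log2 fold change -0.29, adjusted p = 0.0080 from limma). Mrps18c, the copy that takes the bacterial position, had a log2 fold change of 0.01 (95% interval -0.27 to 0.29), and Mrps18a, whose product sits in the large subunit despite its symbol, had -0.19 (-0.42 to 0.04). Neither of these passed, and whether the copies differ from each other was not tested. Mrps30, another large-subunit protein under an Mrps symbol, had 1067, 1201 and 1084 normalized counts in Zhx1-KO and 1031, 1002 and 989 in 46C-Ctrl, which did not overlap and did not pass (log2 fold change 0.15, adjusted p = 0.0891 from limma). Mrps36, now known as a subunit of the oxoglutarate dehydrogenase complex rather than of the ribosome, had a log2 fold change of 0.04 (95% interval -0.22 to 0.31).

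Set side by side, the subunits had similar shares of calls: 17 of 49 Mrpl genes higher and 6 lower, and 8 of 29 Mrps genes higher and 3 lower. The 17 became 10 without Zhx1-KO replicate 2 and 11 without 46C-Ctrl replicate 1, and the 6 became 3 without Zhx1-KO replicate 1 or 2 or 46C-Ctrl replicate 1 or 3. Median log2 fold changes were 0.05 for Mrpl and 0.09 for Mrps, and -0.04 apart as large minus small, about the size of the SD of that difference over the Zhx1-KO libraries (0.038). The sign of this difference turned without 46C-Ctrl replicate 1, when it was 0.02. Counting Mrps18a and Mrps30 with the large subunit and Mrps36 with neither, medians were 0.05 over 51 genes and 0.11 over 26. No test was made over members, which are not replicates of a condition.

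Summed levels gave a different order. The Mrpl genes summed to 33924 ± 1251 normalized counts in Zhx1-KO and 30357 ± 945 in 46C-Ctrl (SD, n = 3 each), 1.12 times as high, and the Mrps genes to 16190 ± 445 in Zhx1-KO and 15250.3 ± 569 in 46C-Ctrl, 1.06 times as high. The ratio of large to small sums was 2.06, 2.15 and 2.08 in Zhx1-KO and 1.999, 1.998 and 1.98 in 46C-Ctrl, higher in each Zhx1-KO library. Leaving out the members of chromosome 11, of which 8 are large and 3 small, turned this order round, with ratios of 1.73, 1.82 and 1.75 in Zhx1-KO and 1.82, 1.83 and 1.80 in 46C-Ctrl, which overlap. Sums weigh abundant genes most, and Mrpl45, Mrpl12, Mrpl38 and Mrpl10, all on chromosome 11, are among them.

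**Figure D3:**
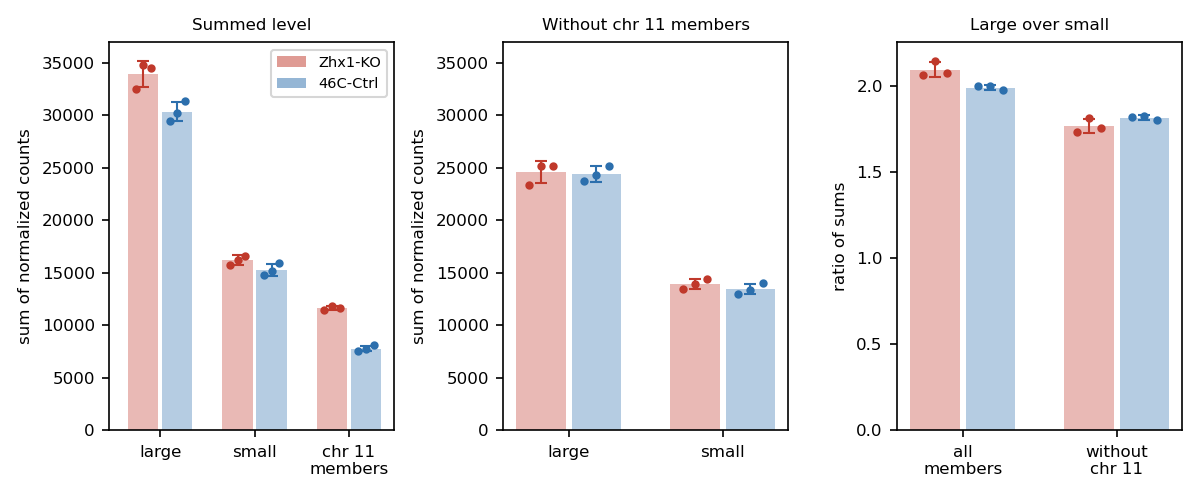
Summed normalized counts of the large-subunit, small-subunit and chromosome 11 members (left), of both subunits without chromosome 11 (middle) and the ratio of large to small sums (right). Bars are means and error bars SD of 3 libraries, points are libraries, and the ratio is higher in Zhx1-KO (2.06 to 2.15, against 1.976 to 1.999 in 46C-Ctrl) only while chromosome 11 is included.

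Position on the genome went with much of the change. The members lie on 17 chromosomes, and 11 lie on chromosome 11: Mrpl10, Mrpl12, Mrpl22, Mrpl27, Mrpl38, Mrpl45, Mrpl55, Mrpl58, Mrps7, Mrps23 and Mrps24. All 11 were called higher, in the reported fit and in each of 15 other settings of the test, and none overlapped between groups. On that chromosome 57.0% of all 1185 genes tested were called higher and 9.62% lower, with a median log2 fold change of 0.42, so these genes rose on a chromosome where most tested genes did. Their own median was 0.63, and 7 of the 11 rose at least 1.5-fold. Of all 1185 genes tested on this chromosome, 406 were called higher with at least that change, and 882 did not overlap between groups. Summed, the 11 members had 11625 ± 219 normalized counts in Zhx1-KO and 7765 ± 279 in 46C-Ctrl, or 1.497 times as many. The remaining 67 members had 14 calls higher and 9 lower, a median of 0.02, and shares of 20.9% higher (23.1% of all genes outside chromosome 11) and 13.4% lower (27.9% of them). Of these, 9 of 41 large and 5 of 26 small members were higher and 6 and 3 were lower, with medians of 0.00 and 0.06.

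The neighbours of each member were then compared with it, as the median over tested genes lying within 1 Mb on either side. For the chromosome 11 members this median ran from 0.38 to 0.51, and 8 of 11 members were above it and 3 (Mrpl12, Mrps7 and Mrps24) below. Mrpl51 lies in a stretch of chromosome 6 from 110 to 140 Mb where 56.9% of 216 tested genes were called lower and 9.72% higher, and its neighbours had a median of -0.56. The other 6 members of chromosome 6 lie outside this stretch, and only Mrpl53 among them passed (log2 fold change -0.22, adjusted p = 0.0412 from limma), a call lost in 10 of 15 other settings. Across 77 members with enough neighbours the correlation between member and neighbour values was 0.51 (Pearson, across genes, which are not independent replicates). It was 0.17 over the 66 outside chromosome 11 and 0.01 when Mrpl51 was left out as well. Mrpl24, Mrpl14, Mrpl34 and Mrpl20, called outside both regions, had neighbour medians of -0.10, -0.02, -0.02 and 0.09. The highest neighbour median of any member, 0.57 over 9 genes, was that of Mrpl42 on chromosome 10, which was called higher. Whether the line carries a change of chromosome number or structure was not tested.

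**Figure D4:**
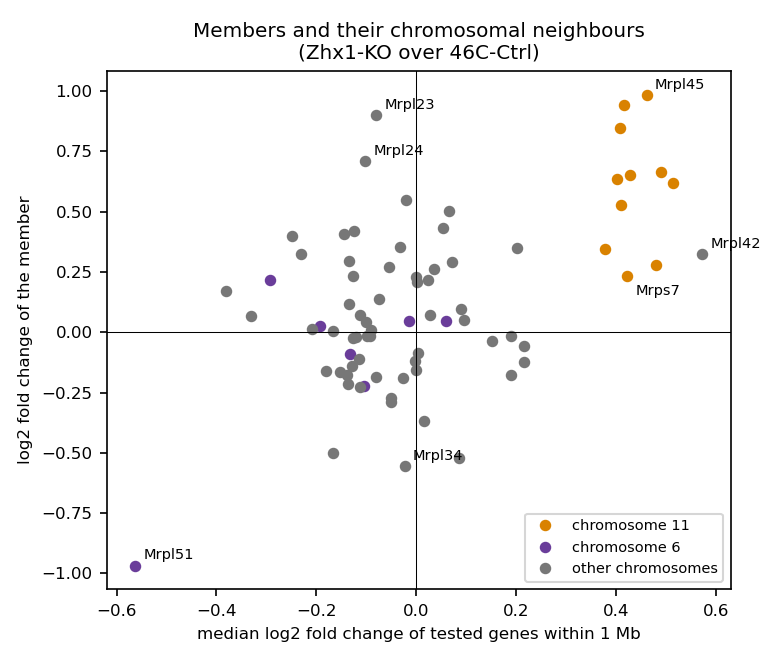
Log2 fold change of each of 77 members (y axis) against the median of tested genes within 1 Mb (x axis), both Zhx1-KO over 46C-Ctrl. Genes of chromosome 11 form a cluster at neighbour medians of 0.38 to 0.51, and Mrpl51 stands alone at -0.56. The other 65 points have a correlation of 0.01, and among them Mrpl42 of chromosome 10 lies furthest right, at 0.57.

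A split by origin used no measured value. Of 48 members with a bacterial homologue, all 3 S18 homologues counted, 18 were higher and 6 lower, with a median log2 fold change of 0.15, and of the other 30 members, 7 were higher and 3 lower, with a median of -0.0046. The split was first made with Mrps18a and Mrps18b among the others, and these were moved when values were known. In that form, 18 of 46 were higher and 5 lower (median 0.19), and 7 of 32 were higher and 4 lower (median -0.02). Over all genes tested, 25.6% were called higher and 26.4% lower. No test was made of this split, and 7 of the 11 chromosome 11 members, all called higher, are in the larger class.

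Levels of different members were compared per kilobase of merged exon, on the scale of normalized counts. In Zhx1-KO the highest was Mrpl12 (1542 per kb) and in 46C-Ctrl Mrpl34 (1241.5) just above Mrpl12 (1215). Per kilobase of coding sequence Mrpl12 was the highest in both, at 3917 in Zhx1-KO and 3087 in 46C-Ctrl, so the order at the top depends on the length used. Mrpl23 was the lowest on either scale (16.6 per kb of exon in Zhx1-KO and 9.14 in 46C-Ctrl), followed by Mrpl48 (21.2 and 14.9). Reads of Mrpl23 may have been counted at its copy Mrpl23-ps1, so its rank is uncertain. Among Mrps genes Mrps28 was the highest per kb of exon (720.1 in Zhx1-KO and 590 in 46C-Ctrl) and Mrps10 the lowest (36.4 and 28.9). The median was 281 per kb of exon in Zhx1-KO and 261 in 46C-Ctrl.

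Counting itself limits some members. Exons of 33 members overlap those of another gene, 28 of them a gene on the opposite strand and 8 a gene on the same strand, and although the study mapped and quantified its reads as stranded, no source used here states the setting behind the deposited counts. Of the 34 called members 16 are among these 33, including Mrpl10, Mrpl12, Mrpl14, Mrpl24 and Mrpl27. At least 1 stretch of 50 bases was shared with a gene elsewhere by 41 members, and 26 shared at least 1% of their stretches with a single such gene. Mrpl48, with 151, 160 and 209 normalized counts in Zhx1-KO and 136, 108 and 120 in 46C-Ctrl, has a copy, Mrpl48-ps, at 52.1 ± 2.87 in Zhx1-KO and 32.4 ± 6.22 in 46C-Ctrl (SD, n = 3 each), and the sum of both was 1.47 times as high in Zhx1-KO.

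Promoters of nuclear genes for mitochondrial proteins often hold sites for NRF-1, for ETS family factors such as GABP (NRF-2), and for YY1. RefSeq promoter windows of GRCm38.p6, from 250 bases before to 50 after the start of the gene, were found for 69 of the 78 members, and both strands were searched. The NRF-1 letters GCGCATGCG were in 7 members, or 10.1%, against 1.75% of all 32851 windows and 3.86% of tested genes. The ETS letters CCGGAAG were in 26 members (37.7%, against 8.86% of all windows and 18.9% of tested genes), and the YY1 letters AAGATGGCG in 8 (11.6%, against 1.40% and 3.33%). None of these strings is contained in another, while the NRF-1 letters and their reverse complement can overlap by 8 bases.

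These 30-base windows show the NRF-1 letters, in capitals, in the 4 called members among the 7, and the ETS letters in the 2 members that fell most. They are written 5′ to 3′ along the gene, and a match on the other strand appears as the reverse complement. Mrpl22 (chr11:58171621-58171650, plus strand, match 33 bases before the start) was called higher, as were Mrpl10 (chr11:97041437-97041466, plus strand, 135 bases before) and Mrpl32 (chr13:14613041-14613070, minus strand, 23 bases before). Mrps18b (chr17:35916645-35916674, minus strand, 224 bases before) was called lower, like Mrpl51 (chr6:125192099-125192128, plus strand, 90 bases before) and Mrpl34 (chr8:71464878-71464907, plus strand, 37 bases before).
Mrpl22: gcctcggactGCGCATGCGtatagtcagcc
Mrpl10: cccagctccaCGCATGCGCatagcggccct
Mrpl32: gcggacttaaCGCATGCGCtcagcccgcgt
Mrps18b: aacggcccgaCGCATGCGCactgggagcac
Mrpl51: caggggctaaaCCGGAAGtatttgactgga
Mrpl34: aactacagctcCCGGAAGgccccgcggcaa

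Members that hold the NRF-1 or the ETS letters were called in both directions. The shares over all genes tested, to set beside these small counts, were 25.6% higher and 26.4% lower. Of the 7 with NRF-1 letters, 3 rose, 1 fell and 3 were not called, with a median log2 fold change of 0.01 against 0.08 for the members without them. With the sixth base of these letters left free, GCGCANGCG, the matches were 16 members (23.2%, against 6.25% of all windows and 14.5% of tested genes), of which 8 were higher and 1 lower, and the medians stood in the other order, 0.28 with and 0.07 without. Of these 16, 12 lie outside chromosome 11, with 4 higher and 1 lower. Of the 26 with ETS letters 6 were higher and 4 lower (median -0.02, against 0.15 without), and of the 8 with YY1 letters 3 were higher and 0 lower (median -0.04, against 0.09 without). A match is a description of the sequence, and binding was not measured here.

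The transcripts of the factors named for these letters were lower or did not pass. Nrf1, the gene for NRF-1, had 432, 429.8 and 333 normalized counts in Zhx1-KO and 244, 372 and 312 in 46C-Ctrl, which overlap (log2 fold change 0.37, adjusted p = 0.105 from limma), and passed only without 46C-Ctrl replicate 2 (adjusted p = 0.0332 from limma). Gabpa, the DNA-binding part of GABP, had a log2 fold change of -0.06 (95% interval -0.25 to 0.13). Of the genes for its partner subunits, Gabpb1 had -0.01 (-0.20 to 0.19) and Gabpb2 -0.82 (adjusted p = 0.0019 from limma). Yy1 had 2415, 2387 and 2506 normalized counts in Zhx1-KO and 2952, 2947 and 2914 in 46C-Ctrl, a log2 fold change of -0.27 without overlap (adjusted p = 0.0015 from limma). Of the 12 tested regulators of nuclear mitochondrial genes, 6 were called lower, where 26.4% of all genes were, and 1 higher, with a median of -0.39. Mycn, a driver of ribosome and mitochondrial gene expression, had 1523, 1574 and 1435 normalized counts in Zhx1-KO and 2409, 2214 and 2422 in 46C-Ctrl. All Zhx1-KO libraries were lower (log2 fold change -0.64, adjusted p = 9.3e-05 from limma), as they were for its relative Myc (-1.02, adjusted p = 0.0073) and for the coactivator gene Pprc1 (-0.51, adjusted p = 7.1e-04). Sp1, a general promoter factor, rose by 0.38 on the log2 scale (adjusted p = 0.0011 from limma). Ppargc1a, the coactivator PGC-1α, was under the filter, at 2.64 to 6.07 normalized counts in Zhx1-KO and 7.38 to 17.6 in 46C-Ctrl.

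The partners of these proteins in mitochondrial translation were read from the same fit. Of 5 mitoribosome proteins under other symbols, Chchd1 (small subunit) was higher (log2 fold change 0.46) and Ptcd3 (small subunit, -0.32) and Gadd45gip1 (large subunit, -0.22) were lower, although Gadd45gip1 lost its call in 8 of 15 other settings. Of 27 genes for assembly of the particle and modification of its rRNA, 11 were higher (40.7%, against 25.6% of all genes) and 1 lower, with a median of 0.13. The 11 became 5 without Zhx1-KO replicate 1, 6 without 46C-Ctrl replicate 3, 7 without Zhx1-KO replicate 2 and 7 without Zhx1-KO replicate 3. Eral1, a GTPase that chaperones the small rRNA, had 643, 688 and 589 normalized counts in Zhx1-KO and 358, 345 and 385 in 46C-Ctrl. It rose by 0.82 on the log2 scale without overlap (adjusted p = 1.7e-04 from limma) and lies on chromosome 11, like Mrm3, an rRNA methyltransferase gene (0.53). Outside that chromosome 7 genes of this list were higher and 1 was lower, the fall being Mterf3 (-0.79, adjusted p = 5.7e-04 from limma), known for a part in mitochondrial transcription and ribosome assembly.

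Among 16 translation factors 5 were higher (31.2%, against 25.6% of all genes) and 2 lower (12.5%, against 26.4%), with a median of 0.18. In 5 of the 6 fits that each leave out a library, the exception being 46C-Ctrl replicate 2, only 1 of them was lower. Mrrf, the recycling factor, had a log2 fold change of 0.70 (adjusted p = 8.2e-04 from limma), Taco1, an activator of Cox1 translation on chromosome 11, of 0.65 (adjusted p = 0.0014), and Lrpprc, which stabilises mitochondrial mRNAs, of -0.22 (adjusted p = 0.0044). Of 22 genes for charged tRNAs 5 were higher (22.7%, near the share over all genes) and 3 lower, with a median of 0.07. The 5 became 2 without Zhx1-KO replicate 2 or replicate 3 and 3 without 46C-Ctrl replicate 1 or replicate 3, and the 3 falls became 1 without 46C-Ctrl replicate 1. Kars, which serves cytosol and mitochondria, rose by 0.33 on the log2 scale, and Mars2 (methionyl-tRNA synthetase) and Gatb (a subunit of the glutaminyl-tRNA amidotransferase) had -0.42 and -0.88, the last losing its call without 46C-Ctrl replicate 1 (adjusted p = 0.0611 from limma).

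The genes that copy and transcribe mitochondrial DNA had 6 calls higher (46.2%, against 25.6% of all genes) and 2 lower of 13, with a median log2 fold change of 0.34. Only 3 were higher without 46C-Ctrl replicate 1, and likewise without Zhx1-KO replicate 2. Polg, the catalytic subunit of the mitochondrial DNA polymerase, had 922, 1086 and 859 normalized counts in Zhx1-KO and 3107, 2600 and 2935 in 46C-Ctrl. The fall was wide, with no overlap (log2 fold change -1.59, adjusted p = 1.4e-05 from limma). Its accessory subunit Polg2, on chromosome 11, changed the other way (0.94, adjusted p = 0.0034), as did the mitochondrial topoisomerase gene Top1mt (0.99, adjusted p = 2.6e-04).

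Most of the genes whose transcripts mitoribosomes translate were lower, but the most abundant of them was higher. Of the 13 protein genes of mitochondrial DNA 8 were called lower (61.5%, against 26.4% of all genes) and 1 higher, with a median log2 fold change of -0.56. Leaving out a library gave 7 or 8 lower and 0 to 2 higher, the 0 without 46C-Ctrl replicate 1 or Zhx1-KO replicate 1 and the 2 without Zhx1-KO replicate 3. Their summed level was 239545 to 256518 normalized counts in Zhx1-KO and 254065 to 391839 in 46C-Ctrl, ranges that overlap. The call higher was that of mt-Co1, the most abundant of the 13. It had 129260, 118689 and 120806 normalized counts in Zhx1-KO and 90619, 112471 and 87319 in 46C-Ctrl (log2 fold change 0.35, adjusted p = 0.0174 from limma). mt-Cytb had 21109.8, 21719.6 and 21544.5 normalized counts in Zhx1-KO and 37148, 43683 and 38565 in 46C-Ctrl. No library overlapped (log2 fold change -0.89, adjusted p = 2.7e-05 from limma). Of the rRNAs, mt-Rnr2 of the large subunit fell by 0.69 on the log2 scale (adjusted p = 0.0026 from limma), and mt-Rnr1 of the small subunit did not pass (0.21, 95% interval -0.15 to 0.58) except without 46C-Ctrl replicate 2 (adjusted p = 0.0027 from limma). PolyA selection captures such RNAs only in part. The calls of mt-Cytb and mt-Rnr2 held without that library. Of 12 mitochondrial protease and chaperone genes 4 were lower (33.3%, against 26.4% of all genes) and 2 higher, with a median of -0.16, and 0 were higher without Zhx1-KO replicate 2 or replicate 3. Hspd1, the chaperonin Hsp60, fell by 0.58 on the log2 scale (adjusted p = 4.1e-05 from limma), and Atf5, a regulator of the mitochondrial unfolded protein response, by 0.95 (adjusted p = 2.2e-04).

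**Figure D5:**
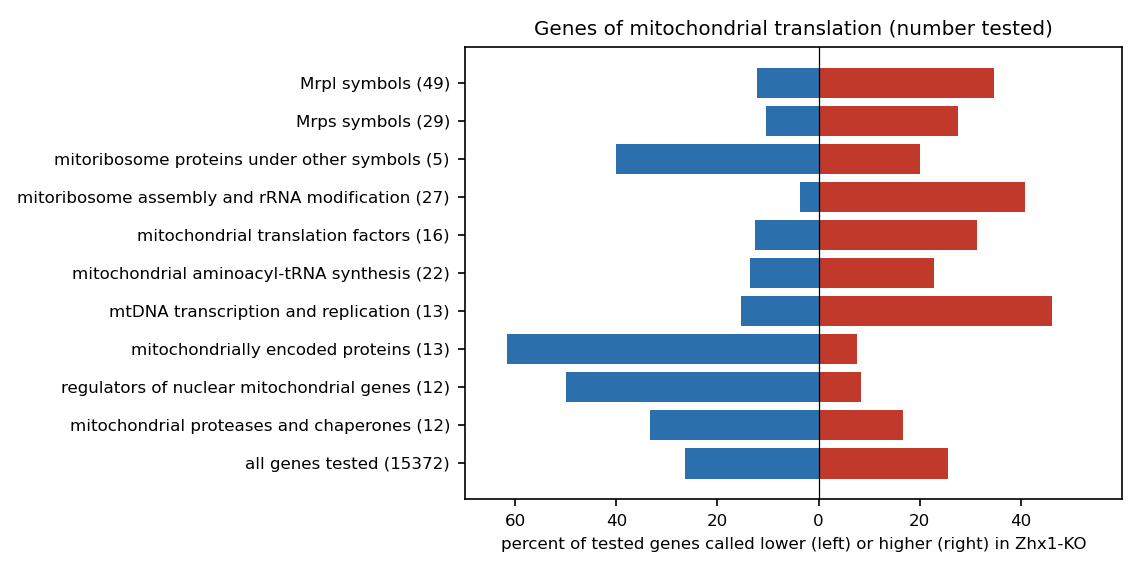
Percent of tested genes (x axis) called lower (blue, left of 0) or higher (red, right of 0) in Zhx1-KO for the Mrpl and Mrps genes, 8 lists of genes of mitochondrial translation and all genes tested, with the number tested in brackets. Mrpl and Mrps genes have more calls to the right (34.7% and 27.6%) than to the left (12.2% and 10.3%), while mitochondrially encoded proteins have most to the left (61.5%).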

How the data were processed

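PolyA RNA of 3 Zhx1-KO and 3 46C-Ctrl libraries was analysed. According to the study's methods and the submitters' processing notes, reads were trimmed with cutadapt 1.18 and mapped to GRCm38 (GENCODE M19) with HISAT2 2.1.0, and StringTie 1.3.4d gave FPKM values, not used here. The deposited signal used here holds counts per gene, scaled by the authors with a single factor for each library (steps of 0.880 to 1.05, all values within 0.01 of a whole step). No source used here names the counting program. Because steps of 1.01 in 2 Zhx1-KO libraries are too near 1 to show whole reads recovered, no count test was run. Genes with a mean of at least 10 were tested with limma 3.58.1 (R 4.3.3, mean trend) on log2(value + 1), on which scale low genes' changes are understated, with Benjamini-Hochberg adjustment, and the steps were tested on simulated data. Exact two-sided permutation tests of 3 libraries against 3 allow no p below 0.1. Positions are from GENCODE annotation of GRCm38. Members and lists were chosen with earlier results of these data known. Genes named are the 8 most significant non-overlapping rises and falls, the extremes of level, members with a special role or position, and up to 3 genes per list. Other called members, Mrps12, Mrpl11, Mrpl17, Mrpl47, Mrpl54, Gabpb1, Gabpb2, Yy1, Sox2 and Nes were added after their values were seen. The replicate numbers did not pair the libraries.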

Additional observations from a re-analysis of the deposited data

How the results depend on the processing

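Of the 34 calls, 22 (16 higher and 6 lower, all 11 of chromosome 11 among them) held in each of 15 other settings of pseudocount, filter, normalization, trend, block and libraries, and no member was called in the other direction in any of them. Leaving out each library in turn gave 16 to 24 members higher and 6 to 8 lower, 10 to 15 large-subunit members higher and 3 to 5 lower, and a difference of subunit medians from -0.0795 to 0.0244. Quantile normalization gave 3 large-subunit members lower and a median of 0.12 over all members. Outside chromosomes 11 and 6, 14 members were higher, and likewise 14 outside chromosome 11 alone, a choice made after seeing the data. The cause of these moves was not tested, apart from the smaller number of members or libraries used. Same-numbered libraries did not deviate together (correlations of 0.0042, -0.069 and 0.00059), so the numbers do not pair them, and with the replicate number as a block 21 members were higher and 7 lower. The number of libraries limits small changes: the median standard error over members was 0.091 on the log2 scale.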
